A study of Homo sapiens with 7 samples.

Results

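The collagen genes are the 43 genes whose symbol reads COL, number, A, number, among 19775 genes that the annotation of these arrays names by a single symbol. They were measured by 112 of 54613 probe sets. A probe set is a group of short probes read as 1 value for a stretch of transcript. The arrays held 1 probe set for 8 of the genes and several, up to 8, for the other 35. The probe set with the highest mean on the 7 arrays stood for its gene, and the others were then examined.

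The samples were clones of the human cell line Panc1, established from a pancreatic carcinoma. Cells had been transfected with a pcDNA3.1 plasmid encoding S100P, a small calcium-binding protein, fused to a V5-His tag, or with that plasmid lacking S100P. Clones grown from single cells were kept in DMEM with FBS and harvested before confluence. The S100P-labelled arm held clone 1 and clone 5 on 2 arrays each, called a and b. The vector arm held clone V3 on 2 arrays, a and b, and clone V1 on 1 array, which carries another prefix in its label. With 2 clones per arm, each grown from a single cell, an effect of the plasmid and a difference between clones can be told apart only as far as those 4 clones allow. No label states that a and b were grown separately, and the p-values therefore reflect the spread among these 7 arrays, part of which may be technical.

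S100P itself (204351_at) read 5.80 and 5.95 in clone 1 and 5.36 and 5.45 in clone 5, against 5.65 and 6.01 in clone V3 and 4.65 in clone V1, on a log2 scale. The arms overlapped, and the arm difference of 0.27 was not called (limma, adjusted p = 0.846). Whether this probe set reads the transfected sequence is not given in the sources used here, and the arms are therefore called by their labels. The medians of all probe sets lay between 4.51 and 4.58 on every array, and arrays of a clone correlated at 0.996 to 0.998. Of 7 epithelial markers, 5 read at least 6 on all arrays. Of 9 fibroblast markers, 7 read under 6 on all arrays, and their mean ran over 4.69 to 4.86 in the S100P-labelled arm and 4.61 to 4.69 in the vector arm. All 4 leukocyte markers measured, and 4 of 5 endothelial markers, read under 6 throughout. Between the arms limma called 0 of these markers, with 5 epithelial and 1 fibroblast marker at an unadjusted p under 0.05, a mark that 15.1% of all genes passed.

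Most collagens are secreted proteins. Collagens are built from 3 chains that wind into a triple helix, which requires glycine at a regular spacing. Chains of several genes combine: type I fibrils use COL1A1 with COL1A2, type V and type XI chains join thin fibrils that set fibril diameter, and type IV chains form the sheet-like network of basement membranes. In pancreatic cancer most fibrillar collagen is known to come from stromal fibroblasts, while tumour cells also secrete some chains.

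Sorted by structure, the 43 genes comprised 11 fibrillar, 6 basement membrane, 5 beaded filament, 10 fibril-associated, 3 short-chain, 1 anchoring fibril, 3 transmembrane, 2 multiplexin and 2 other collagens. On the representative probe sets 30 genes read under log2 6 on all 7 arrays, 9 read at least 6 on all, and 4 did so on some. A mean of at least 6 was seen for 25.6% of the collagen genes and for 49.0% of all genes. A value of 6 is a descriptive mark and not a detection limit, and values of different probe sets share no scale, so no level is compared between genes.

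The promoter windows of COL11A1 and COL4A5 are shown first because their representative probe sets were the ones called between the arms. A COL4A6 window is shown because it overlaps that of COL4A5. They are RefSeq windows of build GRCh38.p14, from 250 bases before to 50 after a transcript start, on the gene's own strand. Capitals mark CCAAT or its reverse complement ATTGG, the sequence that the factor NF-Y binds. The COL11A1 window is chr1:103108473-103108772, minus strand; that of COL4A5 is chrX:108439588-108439887, plus strand; that of COL4A6 is chrX:108439409-108439708, minus strand.

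COL11A1: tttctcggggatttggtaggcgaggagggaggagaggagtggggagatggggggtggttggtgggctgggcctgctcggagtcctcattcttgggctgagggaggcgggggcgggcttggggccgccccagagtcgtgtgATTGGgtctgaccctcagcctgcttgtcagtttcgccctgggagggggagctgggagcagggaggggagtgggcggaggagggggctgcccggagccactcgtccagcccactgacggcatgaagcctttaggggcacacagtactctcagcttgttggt
COL4A5: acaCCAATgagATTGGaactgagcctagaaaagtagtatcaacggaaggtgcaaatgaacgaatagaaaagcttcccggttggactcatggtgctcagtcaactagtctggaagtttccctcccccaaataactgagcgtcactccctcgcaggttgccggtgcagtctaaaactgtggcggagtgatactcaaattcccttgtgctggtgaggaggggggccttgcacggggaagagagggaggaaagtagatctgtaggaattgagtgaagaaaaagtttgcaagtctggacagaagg
COL4A6: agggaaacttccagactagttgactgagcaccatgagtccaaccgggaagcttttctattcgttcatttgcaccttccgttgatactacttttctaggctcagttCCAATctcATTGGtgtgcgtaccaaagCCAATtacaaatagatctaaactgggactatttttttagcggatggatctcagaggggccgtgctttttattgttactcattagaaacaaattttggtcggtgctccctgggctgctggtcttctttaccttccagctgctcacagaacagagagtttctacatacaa

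The COL11A1 window held 1 CCAAT, on the reverse strand and with its first base at position -110 from the start, with 3 copies of GGGCGG and none of TATAAA, and its GC content was 66%. The COL4A5 window held a pair of CCAAT elements facing each other, and 0 copies of GGGCGG or TATAAA. The COL4A5 and COL4A6 transcripts of the printed windows start 380 bases apart and run in opposite directions. These windows share 121 bases, the CCAAT pair included. COL4A6 held 3 CCAAT in this window. Another COL4A6 start, not printed, lies 1416 bases from that of COL4A5. Its window shares 0 bases with the COL4A5 window and held 0 CCAAT and 1 GGGCGG. On both strands CCAAT occurred in 13 of 43 windows of collagen genes (30.2%), which belong to 31 genes, against 34.6% of all 35116 windows. GGGCGG occurred in 24 collagen windows (55.8%, all windows 45.0%) and TATAAA in 7 (16.3%, all windows 11.5%). A match in these windows is a run of letters and not a measured binding site.

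Between the arms, 2 of the 43 collagen genes were called by their representative probe sets, COL11A1 and COL4A5, both higher in the S100P-labelled arm, and 0 were lower (limma with clone as random block, adjusted p under 0.05). Over all 19775 genes 1.55% were called, 1.03% higher and 0.526% lower. At an unadjusted p under 0.05, 6 of the 43 passed, against 15.1% of all genes. The median log2 difference was -0.02 over the collagen genes and -0.00 over all genes, and 34 of the 43 lay within 0.25 of 0. On all 112 collagen probe sets 4 were called, all higher, against 1.12% of all probe sets in either direction and 0.776% higher: 2 of COL11A1, 1 of COL4A5 and 1 of COL1A1. In bulk RNA of a clone, fewer cells that express a gene and less RNA per cell cannot be told apart.

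On the representative probe sets, the arms did not overlap for 5 of the 43 genes (11.6%), against 14.2% of all genes. COL11A1, COL4A5 and COL6A2 lay above the vector arrays on every S100P-labelled array, as did 8.67% of all genes, and COL5A1 and COL7A1 lay below, as did 5.51%. On these probe sets only 4 genes spanned more than 1 log2 unit over the 7 arrays, COL11A1, COL21A1, COL4A5 and COL5A2. That is 9.30% of the collagen genes against 10.0% of all genes. COL1A1 spanned more than 1 log2 unit on other probe sets, described below.

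**Figure D1:**
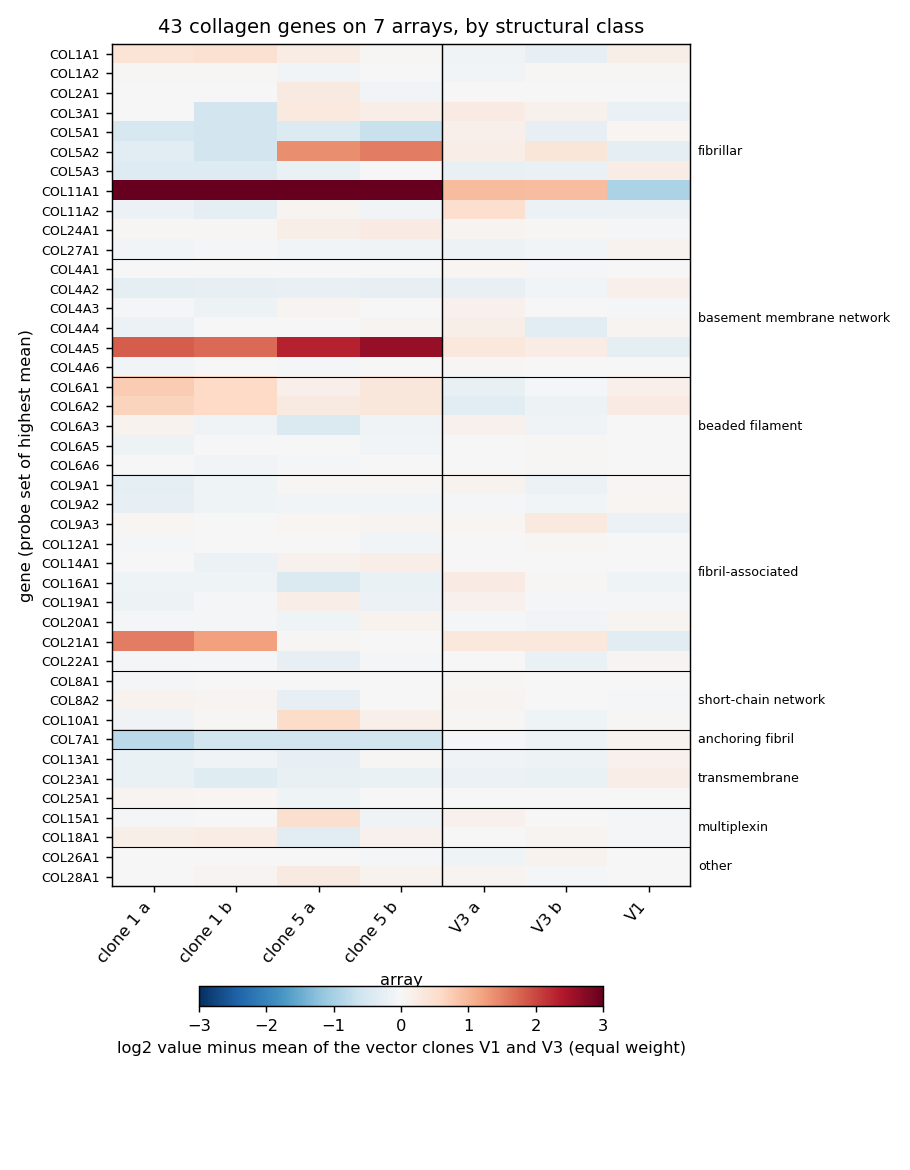
Each row is a collagen gene (representative probe set), grouped by structural class, and each column an array, S100P-labelled clones left of the line and vector clones right. Colour gives the log2 value minus the mean of the vector clones V1 and V3 with equal weight. Most of the 43 rows are near 0 throughout, COL11A1 and COL4A5 are high on all 4 S100P-labelled arrays, COL5A2 is high in clone 5 and COL21A1 in clone 1.

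The fibrillar collagens form the striated fibrils of connective tissue. Of the 11, COL11A1 was called higher between the arms and 10 were not called. COL11A1 encodes the alpha 1 chain of type XI collagen, a minor fibril component of cartilage that tumour stroma also produces. Its representative probe set (37892_at) read 11.11 and 11.18 in clone 1 and 11.45 and 11.31 in clone 5, against 8.92 and 8.91 in clone V3 and 7.04 in clone V1. All 4 S100P-labelled arrays were high and close together, while the vector arm was lower and split by clone. The means were 11.26 ± 0.15 in the S100P-labelled arm (SD, n = 4) and 8.29 ± 1.09 in the vector arm (SD, n = 3), and the fitted arm difference was 3.08 with a standard error of 0.44 (limma, adjusted p = 0.0189).

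The other probe sets of COL11A1 lay in the same order. On 204320_at the gene read 10.25 and 10.42 in clone 1 and 10.64 and 10.52 in clone 5, against 8.78 and 8.18 in clone V3 and 6.19 in clone V1, a difference of 2.87 that was not called (limma, adjusted p = 0.0552). The dim probe set 229271_x_at read 4.86 and 4.60 in clone 1 and 4.41 and 4.87 in clone 5, against 3.12 and 2.83 in clone V3 and 2.47 in clone V1, a difference of 1.91 that was called (limma, adjusted p = 0.00573). Every S100P-labelled array was above every vector array on all 3 probe sets.

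Clones 1 and 5 did not differ in COL11A1 by the test, with a log2 difference of 0.24 and a standard error of 0.09 (limma, adjusted p = 0.288). Clone V1 was 3.68-fold below clone V3 (limma, adjusted p = 9.63e-04). Against the mean of the vector clones, COL11A1 was 8.98-fold higher in clone 1 and 10.6-fold higher in clone 5 (limma, adjusted p = 8.77e-06 and 6.12e-06), contrasts that share the vector arrays. The size of the arm difference rested on which vector clone was used: it was 5.08-fold without V1 (limma, adjusted p = 2.04e-04) and 18.7-fold without V3 (0.00488), against 8.47-fold with both. The call was lost when any single array of clone 1, clone 5 or V3 was left out (limma, adjusted p 0.056 to 0.072), without clone 1 (0.0823), without clone 5 (0.0962), and with 1 averaged value per clone (0.421).

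**Figure D2:**
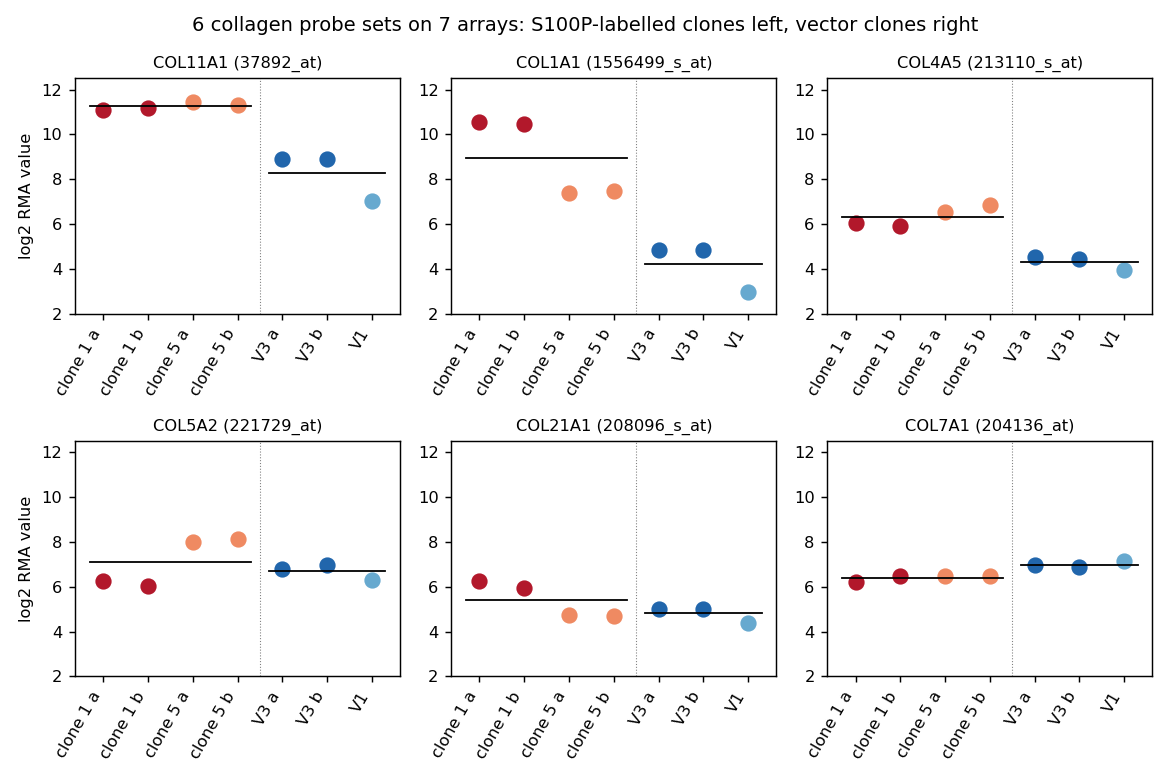
Log2 RMA values of 6 collagen probe sets, 1 panel each, with 1 point per array, S100P-labelled clones left of the dotted line and vector clones right, and horizontal lines at the mean of each arm. COL11A1 and COL4A5 are higher on every S100P-labelled array, COL1A1 steps down by clone, and COL5A2 and COL21A1 differ between clones 1 and 5.

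COL1A1, the alpha 1 chain of type I collagen, gave unlike values on its 5 probe sets. The representative one (217430_x_at) read 7.39 and 7.42 in clone 1 and 7.19 and 7.01 in clone 5, against 6.87 and 6.72 in clone V3 and 7.15 in clone V1. The arms overlapped there, and the difference of 0.32 was not called (limma, adjusted p = 0.447), while clone 1 was called 1.35-fold above the vector clones (0.0281). On 1556499_s_at COL1A1 read 10.55 and 10.46 in clone 1 and 7.41 and 7.46 in clone 5, against 4.84 and 4.84 in clone V3 and 2.97 in clone V1. The 4 clones were ordered clone 1, clone 5, V3 and V1, with gaps far wider than those between arrays of a clone.

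On that probe set COL1A1 averaged 8.97 ± 1.77 in the S100P-labelled arm (SD, n = 4) and 4.21 ± 1.08 in the vector arm (SD, n = 3). The arm difference was 4.87 with a standard error of 0.90, or 29.2-fold (limma, adjusted p = 0.049). Against the vector clones COL1A1 was 97.3-fold higher in clone 1 (limma, adjusted p = 4.3e-07), the largest log2 difference of all 54613 probe sets in that contrast, and 11.6-fold higher in clone 5 (3.73e-06). Clone 5 was 8.41-fold below clone 1 (limma, adjusted p = 1.62e-04), and clone V1 was 3.66-fold below clone V3 (8.36e-04). RMA can compress dim values, and the vector arrays lay near or under the array medians, so these folds depend on that processing.

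The arm call of 1556499_s_at was lost without clone 1, where the difference was 8.10-fold (limma, adjusted p = 0.0754), without V3, where it was 64.1-fold (0.115), without V1, where it was 17.5-fold (0.0925), with averaged clones (0.478), and without V1 with the array letter as a block (0.166). Leaving out any single array of clone 1, clone 5 or V3 also ended the call (adjusted p 0.0873 to 0.143), with 18.2-fold without clone 1 a and 19.4-fold without clone 1 b. It was called without clone 5, at 75.6-fold (0.0171). The ratio of 3' over 5' control probe sets of ACTB, a measure of RNA degradation and labelling, was 0.53 and 0.44 in clone 1 and 0.29 and 0.27 in clone 5, against 0.28 and 0.32 in clone V3 and 0.18 in clone V1, as a log2 difference. Clones 1 and V1 were thus at the ends of both orders. For GAPDH it was 0.08 and 0.08 in clone 1 and 0.07 and 0.06 in clone 5, against 0.09 and 0.14 in clone V3 and 0.01 in clone V1. Their part in the COL1A1 values was not tested.

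A second COL1A1 probe set, 202310_s_at, read 9.82 and 9.97 in clone 1 and 5.82 and 6.75 in clone 5, against 4.63 and 4.74 in clone V3 and 3.97 in clone V1. Clone 1 stood apart, 47.4-fold above the vector clones (limma, adjusted p = 5.15e-05), and clone 5 was 3.88-fold above them (0.00586), while the arm difference was not called (0.149). The dim 202311_s_at read 4.86 and 4.22 in clone 1 and 3.64 and 3.02 in clone 5, against 2.86 and 3.06 in clone V3 and 2.78 in clone V1, with clone 1 3.18-fold higher than the vector clones (limma, adjusted p = 0.00466). The fifth, 202312_s_at, stayed between 4.53 and 4.88 on all arrays. COL1A2, the partner chain of type I collagen, read 3.72 to 3.83 on its representative probe set, and none of its 3 probe sets was called.

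**Figure D3:**
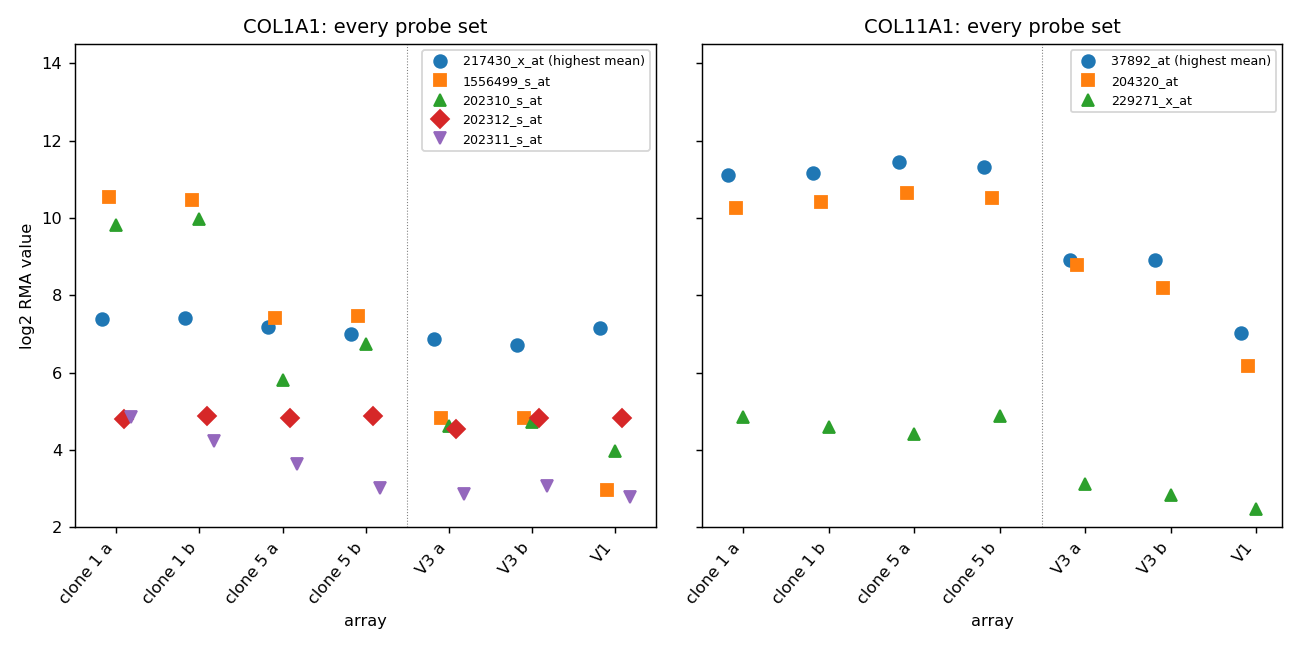
Log2 RMA values of every probe set of COL1A1 (left) and COL11A1 (right) on each array, with S100P-labelled clones left of the dotted line. On COL1A1, 1556499_s_at and 202310_s_at are above 9.8 in clone 1 and under 5 in the vector clones, while 217430_x_at runs over 6.72 to 7.42 and 202312_s_at over 4.53 to 4.88; the COL11A1 probe sets all drop from left to right of the line.

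COL5A2, the alpha 2 chain of type V collagen, which regulates fibril assembly, moved in opposite directions in the S100P-labelled clones. Its representative probe set (221729_at) read 6.27 and 6.05 in clone 1 and 7.99 and 8.15 in clone 5, against 6.81 and 6.97 in clone V3 and 6.33 in clone V1. Clone 5 was above, and clone 1 below, every vector array. Clone 5 was 3.77-fold above clone 1 (limma, adjusted p = 0.00115) and 2.76-fold above the vector clones (8.98e-04), and clone 1 was 1.36-fold below the vector clones (0.0404). The call of clone 1 below the vector clones was lost in 6 of 10 alternatives. That of clone 5 above clone 1 was lost in 6 of 12, and that of clone 5 above the vector clones in 2 of 10.

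The second COL5A2 probe set, 221730_at, read 5.26 and 5.13 in clone 1 and 7.22 and 7.58 in clone 5, against 5.72 and 5.93 in clone V3 and 5.65 in clone V1, in the same order. There clone 5 was 4.61-fold above clone 1 (limma, adjusted p = 0.00122). The arm difference of COL5A2, 0.45 on 221729_at, was not called (limma, adjusted p = 0.844) and depended on the clone: it was 1.31 without clone 1, which was called (0.0426), and -0.56 without clone 5 (0.255). COL3A1, which lies next to COL5A2 on chromosome 2 and encodes type III collagen, was not called in any comparison on its 5 probe sets.

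The other type V chains were dim. COL5A1 (203325_s_at) read 3.92 and 3.85 in clone 1 and 3.98 and 3.73 in clone 5, against 4.54 and 4.13 in clone V3 and 4.44 in clone V1. All S100P-labelled arrays were lower, but the difference of -0.51 was not called (limma, adjusted p = 0.172). Another COL5A1 probe set was called lower in clone 1 than in the vector clones. COL5A3 (52255_s_at) read 4.83 and 4.84 in clone 1 and 5.02 and 5.21 in clone 5, against 5.01 and 5.02 in clone V3 and 5.44 in clone V1, and clone 1 was 1.31-fold below the vector clones (limma, adjusted p = 0.0321). COL11A2 (216993_s_at), the alpha 2 chain of type XI collagen, read 6.13 and 5.99 in clone 1 and 6.38 and 6.23 in clone 5, against 6.81 and 6.13 in clone V3 and 6.13 in clone V1, and was not called, so of the type XI chains measured here COL11A1 was the one called. COL27A1 (225292_at) read 6.12, 6.16, 6.10 and 6.09 in clones 1 and 5, against 6.03 and 6.12 in clone V3 and 6.30 in clone V1.

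Of the 6 basement membrane chains, COL4A5 was called higher and 5 were not called. COL4A5 encodes the alpha 5 chain of type IV collagen, mutated in Alport syndrome. On 213110_s_at it read 6.04 and 5.92 in clone 1 and 6.53 and 6.84 in clone 5, against 4.53 and 4.46 in clone V3 and 3.95 in clone V1. The groups did not overlap, and clone 5 was the highest. Its mean was 6.33 ± 0.43 in the S100P-labelled arm (SD, n = 4) and 4.31 ± 0.31 in the vector arm (SD, n = 3), a 4.14-fold difference (log2 2.05, standard error 0.24, limma, adjusted p = 0.0101).

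Each S100P-labelled clone was above the vector clones in COL4A5, clone 1 by 3.38-fold (limma, adjusted p = 2.24e-04) and clone 5 by 5.50-fold (1.11e-04), and clone 5 was 1.63-fold above clone 1 (0.0394). The difference between V1 and V3 was not called (log2 -0.54, adjusted p = 0.0916). The arm call was lost by a narrow margin without V3 (limma, adjusted p = 0.0509) or either of its arrays (0.0507 and 0.0502), and with averaged clones (0.326). The other COL4A5 probe set, 234387_at, lay between 2.61 and 3.15 and was not called.

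COL4A6, with a start region printed above beside that of COL4A5, read 3.44 to 3.55 on all arrays and was not called. COL4A1, COL4A2, COL4A3 and COL4A4, which sit in head-to-head pairs of the same kind with starts 127 and 419 bases apart, read between 2.84 and 3.67 on every array, and none was called. All 5 lay under the array medians.

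Type VI collagen forms beaded microfilaments at the cell surface from the chains of COL6A1, COL6A2 and another gene such as COL6A3. COL6A1 (213428_s_at) read 7.60 and 7.43 in clone 1 and 6.98 and 7.17 in clone 5, against 6.62 and 6.78 in clone V3 and 6.98 in clone V1. COL6A2 (209156_s_at) read 7.22 and 7.17 in clone 1 and 6.83 and 6.92 in clone 5, against 6.24 and 6.41 in clone V3 and 6.81 in clone V1. Both were highest in clone 1, and they are neighbouring collagen genes on chromosome 21. Clone 1 exceeded the vector clones by 1.59-fold in COL6A1 (limma, adjusted p = 0.00733) and by 1.55-fold in COL6A2 (0.00513).

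The arm differences of COL6A1 (0.48) and COL6A2 (0.52) were not called (limma, adjusted p = 0.28 and 0.236), although without V1 that of COL6A2 was (0.0389). None of the 7 other COL6A1 probe sets was called in any comparison, and the mean over all 8 gave an arm difference of -0.01. COL6A3 read 3.38 to 3.93, and COL6A5 and COL6A6 read under 3.1 on all arrays.

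COL7A1 makes the anchoring fibrils that tie epithelial basement membranes to the stroma. It read 6.21 and 6.47 in clone 1 and 6.47 and 6.47 in clone 5, against 6.96 and 6.86 in clone V3 and 7.13 in clone V1 (204136_at). Every S100P-labelled array was lower, and the means were 6.40 ± 0.13 in the S100P-labelled arm (SD, n = 4) and 6.99 ± 0.14 in the vector arm (SD, n = 3). The arm difference of -0.60 was not called (limma, adjusted p = 0.0582), while both clones were below the vector clones, clone 1 by 1.61-fold (0.00591) and clone 5 by 1.47-fold (0.024). It was called without V1 (0.0485), without the clone block (0.0287) and with arrays centred on their medians (0.0377). The second probe set, 217312_s_at, read 4.99 and 5.32 in clone 1 and 5.24 and 5.32 in clone 5, against 5.44 and 5.32 in clone V3 and 6.01 in clone V1. It was not called between the arms (limma, adjusted p = 0.445), but was called lower in clone 1 than in the vector clones.

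Fibril-associated collagens sit on the surface of fibrils through interrupted helices. COL21A1, a member of this class, has 1 probe set (208096_s_at). It read 6.25 and 5.93 in clone 1 and 4.74 and 4.72 in clone 5, against 5.02 and 5.02 in clone V3 and 4.41 in clone V1. Clone 1 alone stood high, 2.60-fold above the vector clones (limma, adjusted p = 4.96e-04), and clone 5 was 2.57-fold below clone 1 (0.00406). The difference between clone 5 and the vector clones was 0.02 with a standard error of 0.11 (limma, adjusted p = 0.956). The arm difference was 0.63 and not called (0.619), with 1.26 without clone 5 and -0.15 without clone 1.

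The other 9 fibril-associated genes were not called in any comparison on their representative probe sets. COL9A3, a chain of type IX collagen, read 6.54, 6.50, 6.54 and 6.59 in clones 1 and 5, against 6.54 and 6.78 in clone V3 and 6.33 in clone V1. COL9A2 read 4.92, 5.05, 5.10 and 5.11 in clones 1 and 5, against 5.14 and 5.10 in clone V3 and 5.24 in clone V1. COL16A1 read 4.49, 4.49, 4.18 and 4.42 in clones 1 and 5, against 4.86 and 4.63 in clone V3 and 4.47 in clone V1. These 3 overlapped between the arms.

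COL18A1 encodes a multiplexin whose cleaved end is endostatin. It read 10.58 and 10.63 in clone 1 and 10.10 and 10.52 in clone 5, against 10.38 and 10.48 in clone V3 and 10.38 in clone V1, and its arm difference was 0.05 (limma, adjusted p = 0.954). The transmembrane COL13A1 read 5.97, 6.06, 5.93 and 6.20 in clones 1 and 5, against 6.06 and 6.02 in clone V3 and 6.30 in clone V1. The transmembrane COL23A1 read 4.60, 4.44, 4.58 and 4.60 in clones 1 and 5, against 4.63 and 4.60 in clone V3 and 4.99 in clone V1. Neither was called on its representative probe set. Another COL13A1 probe set was called lower in clone 1 than in the vector clones.

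The short-chain COL8A2 read 4.80, 4.79, 4.45 and 4.70 in clones 1 and 5, against 4.79 and 4.71 in clone V3 and 4.65 in clone V1. COL26A1 read 5.85, 5.85, 5.85 and 5.79 in clones 1 and 5, against 5.71 and 5.93 in clone V3 and 5.85 in clone V1. In both genes the arms overlapped and no comparison was called on the representative probe set. The other COL8A2 probe set was called lower in V1 than in V3, and higher in clone 1 than in the vector clones. The 24 collagen genes outside the naming rule, COL5A1 among them, stayed between 2.35 and 4.55 on all arrays, with arm differences from -0.51 to 0.17, and none was called in any comparison on its representative probe set.

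Single clones were compared within each arm, and clones 1 and 5 were each compared with the vector clones. An absent call does not show that clones were alike. Between clone 5 and clone 1, 3 of the 43 genes were called, COL5A2 and COL4A5 higher and COL21A1 lower in clone 5, against 3.02% of all genes (0.673% higher, 2.35% lower). Between V1 and V3, 1 was called, COL11A1, lower in V1, against 7.72% of all genes in either direction and 5.08% lower. Against the vector clones, 9 genes were called in clone 1, 6 higher and 3 lower, where 17.5% of all genes were called (11.7% higher, 5.75% lower). In clone 5, 4 were called, 3 higher and 1 lower, where 8.59% of all genes were (5.65% higher, 2.94% lower). The spread in these fits is that between arrays of a clone with 3 residual degrees of freedom, and V1 is assumed to vary like the other clones.

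Leaving out 1 array of clone 1, clone 5 or V3 reduced the clone 5 against clone 1 calls to 0, while leaving out V1 kept their number at 3. Epithelial markers moved in both directions between clones. Between clone 5 and clone 1, KRT8, KRT18 and KRT19 were called higher in clone 5 and the 4 others were not called, with log2 differences of 0.27 for KRT7, -0.16 for SOX9, -0.36 for CDH1 and -0.43 for EPCAM. Against the vector clones, clone 1 was called lower in KRT7, KRT8, KRT18 and KRT19 and higher in CDH1 and SOX9.

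KRT8 read 10.63 and 10.59 in clone 1 and 11.61 and 11.92 in clone 5, against 12.30 and 12.55 in clone V3 and 11.68 in clone V1. CDH1, which encodes E-cadherin, read 7.79 and 7.66 in clone 1 and 7.36 and 7.37 in clone 5, against 6.17 and 6.36 in clone V3 and 3.83 in clone V1. Clone 1 was thus lowest in KRT8 and highest in CDH1, and V1 was lowest in CDH1, as in COL11A1. The arm difference of CDH1 was 2.23, the largest of the 7 markers, with no overlap of the arms and no call (limma, adjusted p = 0.133). The mean over the 7 epithelial markers was 9.76 to 10.2 in the S100P-labelled arm and 9.57 to 10.3 in the vector arm, and the part of these markers in the collagen differences was not tested.

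**Figure D4:**
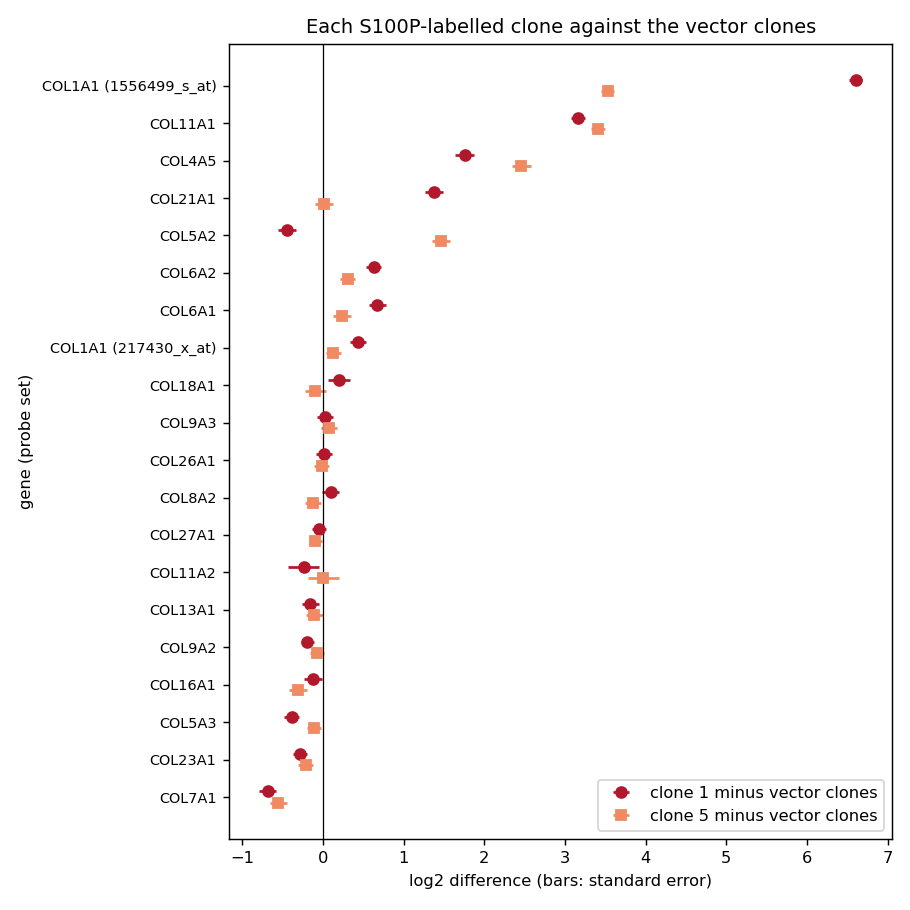
Log2 difference between each S100P-labelled clone (circles, clone 1; squares, clone 5) and the mean of the vector clones, for 19 collagen genes and a second COL1A1 probe set, with bars for the standard error. COL1A1 on 1556499_s_at is at 6.60 in clone 1 and 3.53 in clone 5, COL5A2 lies on opposite sides of 0, and COL7A1 lies below 0 in both.

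Genes that fold, export, cross-link, bind and degrade collagen were examined as lists. In the arm comparison 0 of 21 folding and modification genes, 0 of 17 export and processing genes, 1 of 7 cross-linking genes, 0 of 9 receptors, 0 of 11 breakdown genes and 0 of 23 partners of fibrils and basement membranes were called by limma, against 1.55% of all genes. At an unadjusted p under 0.05 the counts were 2 folding, 3 export, 3 cross-linking, 1 receptor, 0 breakdown and 3 partner genes, against 15.1% of all genes. Their median arm differences were 0.12, 0.04, -0.04, 0.05, 0.02 and 0.08 in that order, against -0.00 over all genes. The called gene was TGM2, tissue transglutaminase, which cross-links matrix proteins. It read 7.50 and 7.56 in clone 1 and 7.38 and 7.45 in clone 5, against 8.69 and 9.06 in clone V3 and 8.27 in clone V1 (201042_at), lower on every S100P-labelled array. The difference was -1.16 with a standard error of 0.18 (limma, adjusted p = 0.027). The call was lost in 9 of 18 alternatives, with averaged clones (0.429) and in 8 that left out arrays or a clone (0.0509 to 0.119). In this list LOXL1 went the other way, with an arm difference of 0.95 that was not called (limma, adjusted p = 0.167). It was called above the vector clones in clone 1, 2.26-fold, and in clone 5, 1.92-fold (limma, adjusted p = 4.6e-04 and 0.00238). V1 was 2.06-fold below V3 in LOXL1. Besides TGM2 and LOXL1, only LOXL2 was called in these contrasts, lower in clone 1.

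The 3 other TGM2 probe sets were not called between the arms. On 211003_x_at and 211573_x_at both S100P-labelled clones were called lower than the vector clones, clone 1 by 1.30-fold and 1.34-fold (limma, adjusted p = 0.0342 and 0.0384) and clone 5 by 1.46-fold and 1.40-fold (0.0147 and 0.0371). On 211003_x_at V1 was called 1.48-fold above V3 (limma, adjusted p = 0.0388), whereas on 201042_at V1 read below V3 with no call (-0.60, adjusted p = 0.0807).

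Prolyl hydroxylation stabilises the triple helix. P4HA2, a catalytic subunit of prolyl 4-hydroxylase, read 8.91 and 8.97 in clone 1 and 8.79 and 8.91 in clone 5, against 8.44 and 8.54 in clone V3 and 7.51 in clone V1. Its arm difference of 0.79 was not called (limma, adjusted p = 0.214), but each S100P-labelled clone was above the vector clones, clone 1 by 1.92-fold (9.18e-04) and clone 5 by 1.81-fold (0.00293). V1, on a single array, was 1.97-fold below V3 in P4HA2, so these folds depend on V1. PLOD2, a lysyl hydroxylase, read 10.05 and 9.97 in clone 1 and 10.45 and 10.17 in clone 5, against 9.97 and 10.14 in clone V3 and 9.32 in clone V1, and was not called between the arms (0.546).

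PCOLCE2, an enhancer of procollagen C-proteinase, read 5.94 and 5.75 in clone 1 and 7.18 and 6.67 in clone 5, against 4.72 and 4.72 in clone V3 and 5.45 in clone V1. The arms did not overlap; the difference of 1.38 was not called (limma, adjusted p = 0.142), and clone 5 was 2.11-fold above clone 1 (0.0265). KLHL12, a ubiquitin ligase adaptor for procollagen export, had an arm difference of 0.37 (limma, adjusted p = 0.415). DDR2, a receptor tyrosine kinase for fibrillar collagen, read 6.89 and 6.62 in clone 1 and 6.16 and 5.97 in clone 5, against 5.66 and 5.67 in clone V3 and 5.63 in clone V1. Its arm difference of 0.76 was not called (limma, adjusted p = 0.166), and clone 5 was 1.61-fold below clone 1 (0.0393).

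The collagen uptake receptor MRC2 differed by 0.26 between the arms, the gelatinase MMP2 by 0.35 and its inhibitor TIMP2 by 0.29, and none was called (limma, adjusted p = 0.707, 0.755 and 0.78). Among basement membrane partners, NID1, which links laminin to type IV collagen, read 9.33 and 9.23 in clone 1 and 9.48 and 9.46 in clone 5, against 8.74 and 9.08 in clone V3 and 8.23 in clone V1, a difference of 0.73 that was not called (limma, adjusted p = 0.16). LAMA4, a laminin chain, read 5.18 and 5.28 in clone 1 and 5.62 and 5.25 in clone 5, against 6.28 and 5.92 in clone V3 and 6.05 in clone V1, a difference of -0.74 that was not called (limma, adjusted p = 0.0735). In both genes the arms did not overlap.

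**Figure D5:**
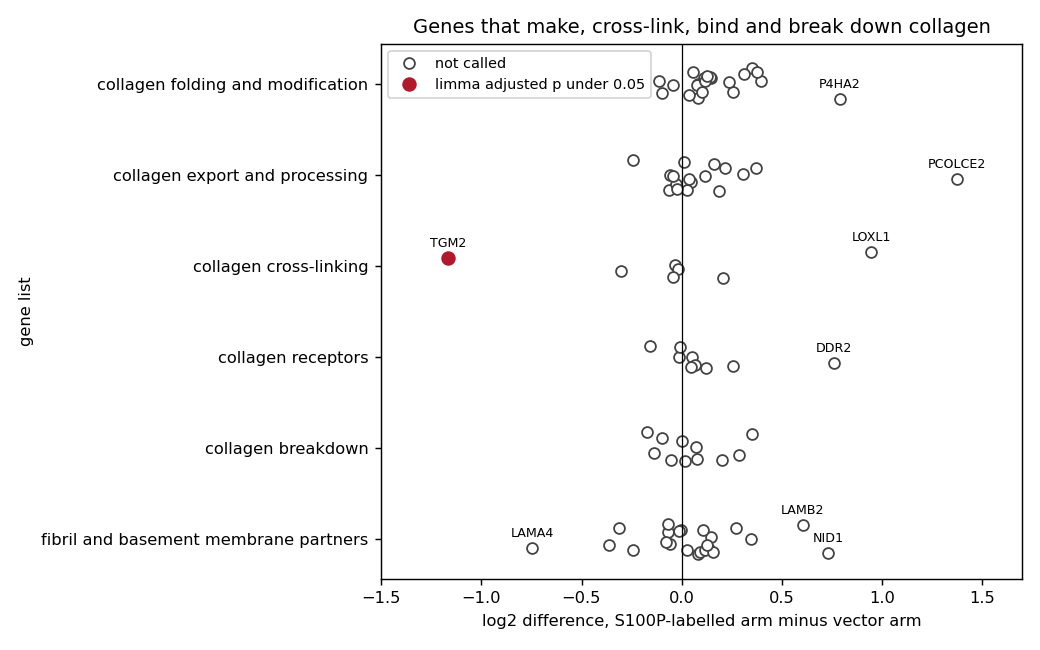
Each point is a gene of 1 of 6 collagen pathway lists, placed by its log2 difference between the S100P-labelled arm and the vector arm; the filled point passed the limma threshold. TGM2 at -1.16 is the only filled point, and PCOLCE2 at 1.38 is the farthest to the right; the vertical scatter within a list has no meaning.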

How the data were processed

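Total RNA of Panc1 clones was measured on 7 Affymetrix arrays of 54675 probe sets, of which 62 controls were left out and 54613 tested. The authors produced the deposited log2 values with RMA (background correction, normalization between arrays and summary of probes), per the submitters' processing notes; the scale was read from their range, and the RMA version is not given in the sources used here. No detection calls or scanner files were used here, so the number of arrays limits the precision.

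A gene was named from a probe set with 1 symbol in the platform annotation (41091 probe sets) and stood for by the one with the highest mean on the 7 arrays. Of the 41091, 41037 matched a current gene by Entrez number. The 43 collagen genes are all such single symbols of the form COL, number, A, number, and 31 of them matched the promoter windows. The transmembrane collagen COL17A1 is not among them. Of the pathway lists, 21 of 22 folding, 9 of 10 receptor and 23 of 25 partner genes had such a probe set.

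The arm comparison was a limma fit with clone as random block (duplicateCorrelation, consensus correlation 0.287). The same correlation was applied to all probe sets. Where arrays of a clone lie much closer together than the clones do, it can make arm standard errors and p-values too small. With averaged clones the standard errors were larger than those given above: 0.64 for COL11A1 (37892_at), 1.21 for COL1A1 (1556499_s_at) and 0.31 for COL4A5 (213110_s_at). Single clones were contrasted in another limma model, each clone a fixed effect, with 3 residual degrees of freedom. P-values are two-sided and Benjamini-Hochberg adjusted over 54613 probe sets, with a threshold of 0.05. Tools were R 4.3.3, limma 3.58.1, statmod 1.5.0, pandas 2.3.3 and matplotlib 3.10.9. On simulated arrays of all 54613 probe sets, the arm fit recovered 86% of changes of log2 size 1 and 99% of size 2, with 17 false calls. That simulation drew clone differences with a smaller spread than that between arrays of a clone. Its figures therefore cannot give recovery or false calls for probe sets whose clones differ widely within an arm. On the representative probe set of COL11A1, for example, V1 minus V3 was -1.88 on the log2 scale.

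Values on every array are given for members called in any comparison, members with another probe set called between the arms, and the 10 others of highest mean. From each pathway list, called genes are named, or else the 2 of largest difference. LOXL1 and LOXL2 of the cross-linking list are named besides. The members, the lists and this rule were chosen with earlier results of these data known. The alternatives were another normalization, filter, prior, block and choice of probe set, and leaving out arrays or clones.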

Additional observations from a re-analysis of the deposited data

Results flagged for a closer look

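In the S100P-labelled arm a single array stood apart from the other 3, relative to their range, for 3 of 21 collagen probe sets examined. The measure was the gap to the nearest array divided by the range. Chance flags about 1 in 20 such groups of independent values without ties. These arrays come in pairs from a clone and hold tied values, so that rate is no measure for them. For COL7A1 that share was 1: clone 1 a read 6.21, and the other 3 arrays had the same value, 6.47. For COL26A1 it was also 1, with clone 5 b at 5.79 and the others at 5.85. For COL23A1 it was 0.884, with clone 1 b at 4.44 and the others at 4.58 to 4.60.

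The S100P-labelled clones differed from each other, by the limma test of clone 5 against clone 1, on 6 of the 112 collagen probe sets. Of all probe sets 2.19% were called in that comparison. The 4 described here are among the 21 examined, some of which were named because of such calls. The rest are another probe set each of COL5A2 and COL1A1. COL5A2 was higher in clone 5 by 1.91 and COL4A5 by 0.70 on the log2 scale. In clone 5, COL21A1 differed by -1.36 and COL1A1 on 1556499_s_at by -3.07 from clone 1. On COL5A2 the vector arrays lay between clone 1 and clone 5, on COL21A1 those of clone 5 lay within the range of the vector arrays, and on COL4A5 and COL1A1 both clones lay above all vector arrays.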

How the results depend on the processing

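Of 63 results on single probe sets that were recomputed under the alternatives, 0 called ones reversed; clone contrasts of the pathway and marker genes, and of other probe sets of the collagen genes, were not recomputed. Against 2 collagen genes called between the arms, 0 were called with the arrays of each clone averaged, 1 with probe sets of a mean of at least 6, 1 without clone 5, 1 without V3 and 1 with probe sets outside the x and s types, while leaving out 1 array gave 0 to 4. Leaving out 1 array gave 0 to 3 genes between clones 5 and 1 (3 with all arrays), 0 to 1 between V1 and V3 (1), 3 to 8 in clone 1 against the vector clones (9) and 2 to 3 in clone 5 against them (4). Between V1 and V3, centring on array medians gave 2, a mean of at least 6 gave 3 and a second quantile normalization gave 3. Over all probe sets the arm comparison called 8 (averaged clones) to 1708 (without V1), against 611. The deviations of a arrays from their clone means correlated at -0.08 to 0.06 between clones. No label states what the letters a and b mark, and these correlations cannot exclude a shared culture or batch. With the letter as replicate block, without V1, 2 genes were called between the arms and 3 between clones 5 and 1. Contrasts with V1 could not be fitted without it. The report gives the values at which the arm calls of COL11A1 on 37892_at, COL1A1, COL4A5 and TGM2 were lost; the cause was not tested. Without detection calls, the levels of dim probe sets are not separated from background.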
